A study of Rattus norvegicus with 12 samples.

Results

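The 10 circadian clock genes Clock, Arntl, Per1, Per2, Per3, Cry1, Cry2, Nr1d1, Nr1d2 and Dbp were taken by name from a table of 32545 genes measured in the free walls of the neonatal rat LV and RV. All 10 were found, each on 1 row, and all 10 passed the filter on low values that 13910 genes passed. The animals were Sprague–Dawley (SD) rats that had undergone surgery at postnatal day 1 and were sampled at postnatal day 7. In the volume overload (VO) groups the surgery joined the abdominal aorta to the inferior vena cava by a fistula, which sends extra blood back to both ventricles, and the sham groups had an operation without a fistula. The 4 groups, LV after sham, LV after VO, RV after sham and RV after VO, held 3 libraries each, and the labels carry no transgene, drug or other difference between the groups. The labels give day 7 for every library but no hour of death, and neither the labels nor the study's methods say whether an LV and an RV with the same number came from 1 animal or whether libraries were pooled. P values therefore measure the spread between these libraries, which may in part be technical.

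The circadian clock is a feedback loop of transcription that runs in nearly every cell with a period of about a day. CLOCK and BMAL1 (the product of Arntl) form a dimer that binds E-box motifs and turns on the Per and Cry genes, whose products later repress that dimer. NR1D1 and NR1D2 (REV-ERB alpha and beta) are nuclear receptors that repress Arntl through ROR elements, and DBP is a transcription factor that carries the rhythm to output genes through D-box motifs. In the adult heart the clock times fuel use and ion channel levels, and because Arntl peaks opposite in phase to Nr1d1, Dbp and the Per genes, the level of a clock gene in a sample depends on the hour at which the tissue was taken.

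Promoter sequences are shown for Arntl, Per2 and Nr1d1 because they carry the motifs by which clock genes regulate each other. They are the 250 bases before a transcription start in RefSeq on build GRCr8, printed 5′ to 3′ on the strand of the gene, with the motif in capitals. Of the 10 genes, 9 matched an entry in the set of promoters used here (Arntl under its newer symbol Bmal1) and Cry1 did not. This gave 11 windows, since Clock and Nr1d1 have a pair of starts each.
Arntl, chr1:176766078-176766327, + strand: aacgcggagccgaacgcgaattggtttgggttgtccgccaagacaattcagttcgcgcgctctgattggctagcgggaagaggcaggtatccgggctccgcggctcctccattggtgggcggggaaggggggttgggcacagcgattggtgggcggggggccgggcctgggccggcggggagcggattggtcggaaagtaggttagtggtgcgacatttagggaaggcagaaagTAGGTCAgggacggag
Per2, chr9:99496994-99497243, - strand: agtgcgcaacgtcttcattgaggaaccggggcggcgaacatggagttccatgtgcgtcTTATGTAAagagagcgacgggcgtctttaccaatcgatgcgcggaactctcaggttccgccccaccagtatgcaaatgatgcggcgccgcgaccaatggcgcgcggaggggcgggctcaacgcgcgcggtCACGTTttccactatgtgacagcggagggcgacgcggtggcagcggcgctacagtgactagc
Nr1d1 start 1, chr10:84231813-84232062, - strand: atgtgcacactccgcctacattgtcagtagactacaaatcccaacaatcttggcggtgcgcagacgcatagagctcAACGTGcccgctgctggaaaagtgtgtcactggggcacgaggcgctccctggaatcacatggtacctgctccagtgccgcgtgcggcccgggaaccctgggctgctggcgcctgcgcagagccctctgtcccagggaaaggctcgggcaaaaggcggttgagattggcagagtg
Nr1d1 start 2, chr10:84229455-84229704, - strand: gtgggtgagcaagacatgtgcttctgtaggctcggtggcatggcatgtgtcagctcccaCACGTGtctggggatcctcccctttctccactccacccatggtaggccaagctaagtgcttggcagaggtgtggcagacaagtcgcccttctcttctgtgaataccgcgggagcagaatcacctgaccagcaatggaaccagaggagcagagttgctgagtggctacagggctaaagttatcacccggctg
The capitals mark TAGGTCA in Arntl, a ROR element core 10 to 16 bases before the start. In Per2 they mark the D-box TTATGTAA 185 to 192 bases before the start and the E-prime box CACGTT 57 to 62 bases before it. In Nr1d1 they mark AACGTG, which is the E-prime box on the other strand, 169 to 174 bases before start 1, and the E-box CACGTG 186 to 191 bases before start 2. Both strands were searched for the E-box CACGTG, the E-prime box CACGTT, the D-box TTATGTAA or TTACGTAA, the ROR element core TAGGTCA or TGGGTCA, and the cyclic AMP element TGACGTCA. Among the other members, Cry2 held an E-prime box 207 to 212 bases before its start, and no searched motif was found in the windows of Dbp, Per1, Per3, Clock and Nr1d2. Of 33469 rat promoter windows of this length, 5.59% held the E-box, 4.07% the E-prime box, 0.932% the D-box, 5.62% the ROR element core and 1.59% the cyclic AMP element. These letters are a description of the windows, and no binding was measured.

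The authors expressed the reads on each gene as FPKM (fragments scaled to gene length and to the reads of the library). This puts genes and libraries on 1 scale but does not remove differences in the makeup of the libraries. Their share of reads on mitochondrial genes, for example, ran from 14.4% to 26.2%. Between 14121713 and 16871371 reads lay on genes in each library, with 17128 to 17807 genes detected. The 9 ventricular cardiomyocyte markers summed to between 18742 and 29878 FPKM per library, and none of the 9 was at 0. Atrial markers were also present, at 225 to 1742 FPKM in the sham groups and VO LV and at 266 to 4576 FPKM in VO RV. In tissue of mixed cell types, fewer cells of a type and less RNA per cell cannot be told apart.

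Every clock gene was detected in every library. Averaged over the 12 libraries, Dbp stood first at 23.3 FPKM, followed by Cry2 at 17.5, Per1 at 17.1 and Nr1d2 at 15.2 FPKM. Per3 (10.6 FPKM) and Per2 (10.5 FPKM) formed a middle pair, and Clock (7.31), Cry1 (6.31), Nr1d1 (5.92) and Arntl (4.69 FPKM) stood lowest. Dbp had the highest and Arntl the lowest mean in each of the 4 groups. In this order the neighbours Cry2 and Per1, Per1 and Nr1d2, Per3 and Per2, and Cry1 and Nr1d1 differed by less than the larger of their SDs over the 12 libraries, and the other neighbours differed by more. The positions in the deposited table, whose build the sources used here do not state, are chromosome 14, 34446616–34502218 for Clock and chromosome 1, 178039063–178137465 for Arntl. Per1 lies on chromosome 10 at 55687050–55695994, Per2 on chromosome 9 at 98555169–98597359 and Per3 on chromosome 5 at 168086998–168123395. Cry1 lies on chromosome 7 at 24534615–24634097 and Cry2 on chromosome 3 at 81314149–81344110. Nr1d1 lies on chromosome 10 at 86683875–86690815, Nr1d2 on chromosome 15 at 8730871–8757165 and Dbp on chromosome 1 at 101687855–101692846.

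**Figure D1:**
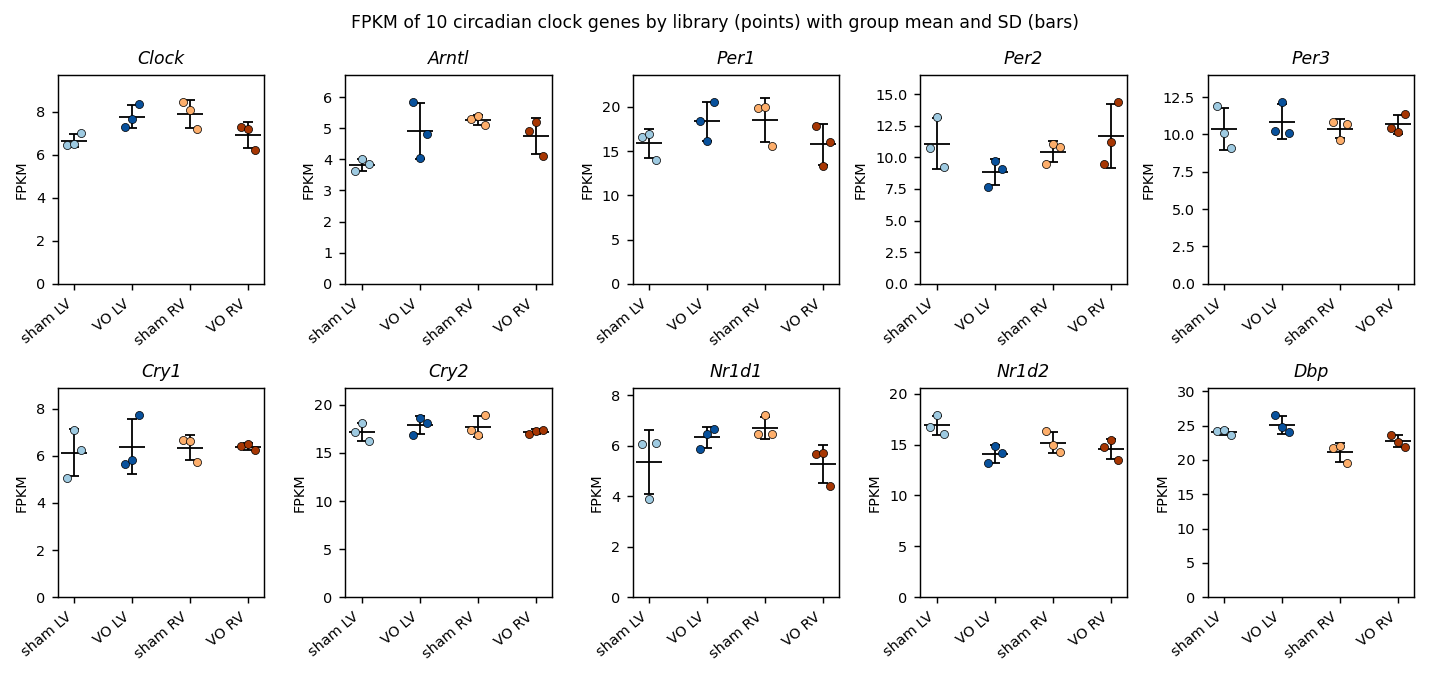
FPKM (y axis, from 0) of each of the 10 clock genes in each library (points) of sham LV, VO LV, sham RV and VO RV, with the group mean (wide line) and SD (error bars, n = 3). Arntl shows its lowest points in sham LV, between 3.61 and 4.0 FPKM, and Per2 shows the widest scatter relative to its mean, between 7.68 and 14.4 FPKM.

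Over all 12 libraries, taken without regard to group, the clock genes were close to even. The ratio of the highest to the lowest library was 1.16 for Cry2, 1.34 for Per3, 1.36 for Clock, Nr1d2 and Dbp, and between 1.52 and 1.87 for Cry1, Per1, Arntl, Nr1d1 and Per2. The median of this ratio over the tested genes above 0 in every library was 1.73, and 8 of the 10 clock genes lay below it, with Per2 (1.87) and Nr1d1 (1.85) above. The clock genes averaged 4.69 to 23.3 FPKM, while the filter admitted means from 0.5 FPKM. The genes compared were not matched for level. The coefficient of variation ran from 4.54% for Cry2 to 17.6% for Per2. Counting error alone, at the mean number of reads, would give 3.01% for Cry2 and 3.22% for Per2, so nearly all of the spread of Per2 lay above it. For Arntl the spread was 15.5% against a counting error of 6.73%, and for Nr1d1 it was 15.9% against 6.48%, since only 159 to 281 reads of Arntl and 161 to 290 of Nr1d1 were counted per library. The reads came from amplified libraries without molecular identifiers, so these errors cover counting only.

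**Figure D2:**
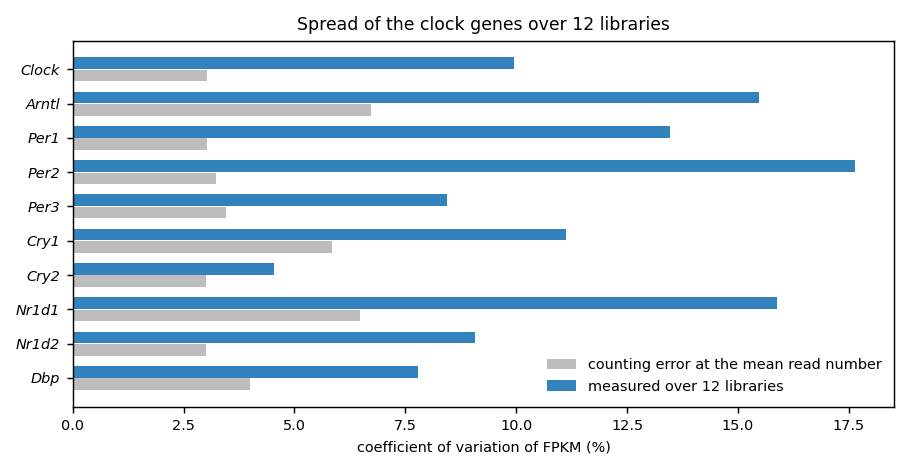
Coefficient of variation of FPKM (x axis, percent) over the 12 libraries for each clock gene, as measured (blue bars) and as counting error at the gene's mean number of reads would give (grey bars). Cry2 sits closest to its counting error, at 4.54% against 3.01%, and Per2 is farthest above it, at 17.6% against 3.22%.

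The same evenness showed within groups. On the log2 scale used for testing, the SD within groups was below the median of all tested genes (0.19) for 8 of the 10 clock genes, and that of Dbp was lower than in all but 1.49% of genes. The tested genes were again not matched to the clock genes for level. As a description of the balance between the genes that peak in opposite phases, the FPKM ratio of Dbp to Arntl was between 3.83 and 6.71 in the 12 libraries. It averaged 6.30 ± 0.353 (SD, n = 3) in sham LV and 5.22 ± 0.805 in VO LV, and in the RV it averaged 4.0 ± 0.153 after sham and 4.83 ± 0.495 after VO. The ratio of Nr1d2 to Arntl was 4.42 ± 0.242 in sham LV and lay between 2.88 and 3.08 on average in the other groups. That of Nr1d1 to Arntl did not set sham LV apart, at 1.41 ± 0.384 there and 1.28 ± 0.0577 in sham RV. It was 1.33 ± 0.298 in VO LV and 1.11 ± 0.045 in VO RV. The mean ratio of Dbp to Arntl was thus highest in sham LV and lowest in sham RV. VO LV replicate 2 (6.10) lay within the sham LV range of 6.08 to 6.71. The ratio did not overlap between the sham groups. This follows from Dbp and Arntl, which each lacked overlap between them, in opposite directions, so it is not a separate result.

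In the comparison of the ventricles at baseline, sham LV against sham RV, none of the 10 clock genes was a differentially expressed gene (DEG). A DEG needed a Benjamini–Hochberg adjusted p under 0.05 by limma and a fold change over 1.3, and 3.86% of the tested genes met this (537 genes). At the same thresholds the study, which used DESeq2, reported more DEGs here and for VO in each ventricle. The shares of DEGs given in this text are those of the limma fit. In this comparison 3 of the 10 had an unadjusted p under 0.05, beside 25.7% of all tested genes, and voom on the recovered reads left 2. The FPKM of 4 of the 10 did not overlap between the groups, beside 32.2% of all genes. The median log2 fold change of the 10 was -0.05, beside 0.01 over all genes tested.

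The gene with the smallest adjusted p was Arntl, the activator that pairs with CLOCK. Its FPKM was 3.61, 4.0 and 3.86 in sham LV and 5.30, 5.40 and 5.09 in sham RV. All sham LV libraries lay below all sham RV libraries, and the log2 fold change was -0.42 (SE 0.13, adjusted p = 0.0852 by limma). With 3 libraries against 3 an exact two-sided permutation test cannot go below 0.10, the value it gave for Arntl. Leaving out 1 library at a time moved the log2 fold change of Arntl between -0.45 and -0.38 and its adjusted p between 0.0685 and 0.223.

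Clock, the partner of BMAL1, had 6.46, 6.50 and 7.01 FPKM in sham LV and 8.47, 8.07 and 7.19 FPKM in sham RV. The log2 fold change of Clock was -0.23 (SE 0.10, adjusted p = 0.174). Its groups did not overlap, but sham LV replicate 3 and sham RV replicate 3 were near each other. Dbp, the output factor, pointed the other way, at 24.2, 24.4 and 23.6 FPKM in sham LV and 21.8, 22.0 and 19.5 FPKM in sham RV. Its log2 fold change was 0.19 (SE 0.08, adjusted p = 0.153), again without overlap and without reaching the threshold.

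The REV-ERB receptors did not point the same way. Nr1d1 had 6.07, 3.90 and 6.12 FPKM in sham LV, where replicate 2 was far below the rest, and 6.46, 7.21 and 6.47 FPKM in sham RV. That library also had the lowest share of reads on mitochondrial genes of the 12, at 14.4% against 26.2% and 23.8% in the other sham LV libraries and 16.0% to 23.8% elsewhere, and the part of this in the value of Nr1d1 was not tested. The log2 fold change of Nr1d1 was -0.32 (SE 0.16, adjusted p = 0.226). Without sham LV replicate 2 the log2 fold change of Nr1d1 was -0.13. Nr1d2 had 16.7, 17.9 and 16.1 FPKM in sham LV and 16.3, 15.0 and 14.3 FPKM in sham RV, which overlapped, with a log2 fold change of 0.15 (SE 0.09). Among the repressors, Per1 had 15.9 ± 1.62 FPKM in sham LV and 18.5 ± 2.50 in sham RV, and the log2 fold changes of Per2, Per3, Cry1 and Cry2 lay between -0.06 and 0.07. The 95% confidence intervals of Cry2 (-0.21 to 0.13) and Per3 (-0.26 to 0.24) stayed inside a fold change of 1.3 in either direction, while that of Per2 (-0.29 to 0.43) did not.

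**Figure D3:**
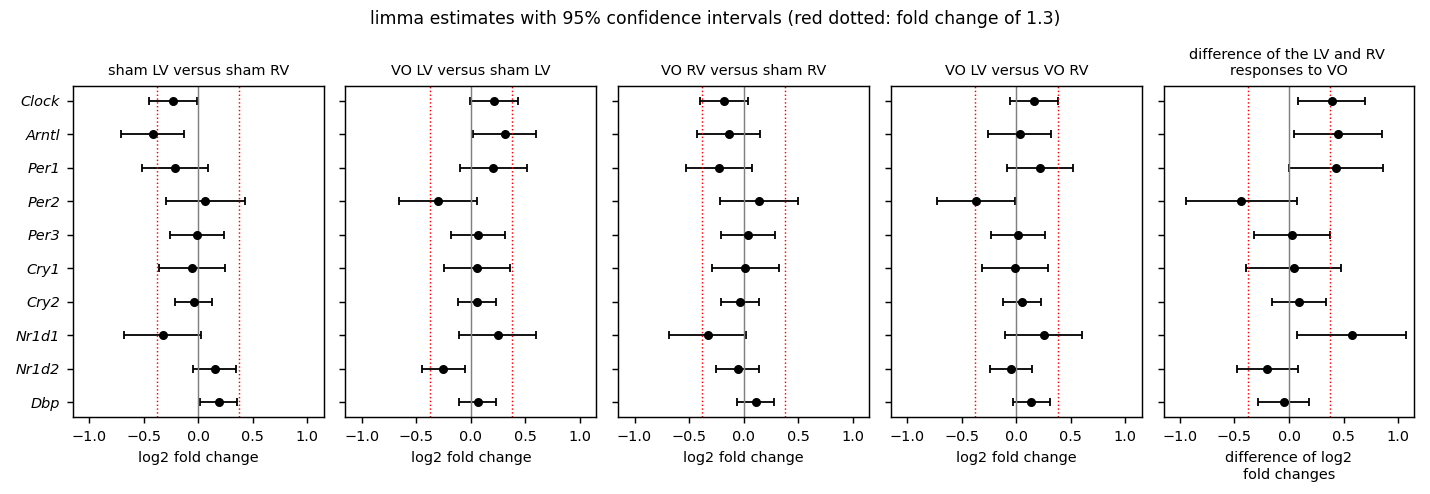
Log2 fold change (x axis) of each clock gene in 4 comparisons and the difference of the responses to VO in the fifth panel, from limma, with 95% confidence intervals and red dotted lines at a fold change of 1.3. Arntl in sham LV against sham RV is at -0.42, and Cry2 stays within the dotted lines in all 5 panels.

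Other measures moved with this comparison. The balance of long genes (5000 bases or more, 1413 genes) against short genes (under 1500 bases, 4228 genes) was -0.11, -0.19 and -0.10 on the log2 scale in sham LV and 0.23, 0.12 and -0.03 in sham RV. Clock is long (9419 bases), and when the trend of each library with gene length was removed, a step added after the data were seen, its log2 fold change was -0.08 (adjusted p = 0.583). Arntl (2973 bases) kept a log2 fold change of -0.38 and Nr1d1 (2549 bases) one of -0.30 after this step. Of 6 endothelial markers tested, 3 (Emcn, Kdr and Tie1) were DEGs, all higher in sham LV, beside the 1.51% of all genes that were higher DEGs. These calls were lost without any 1 of sham LV replicates 1 and 2, the sham RV libraries and VO LV replicate 2. Emcn and Kdr also lost theirs without sham LV replicate 3 or VO LV replicate 1, and Kdr without VO LV replicate 3, with adjusted p up to 0.165. The summed level of the markers, over the 7 found in the table, was 371 to 398 FPKM in sham LV and 278 to 299 in sham RV, with Cldn5 listed at 0 in every library. Red blood cell markers summed to 9632 to 13193 FPKM in sham LV and 4900 to 8174 FPKM in sham RV, with none of the 6 a DEG. Of 9 ventricular cardiomyocyte markers, Ryr2, the calcium release channel, was a lower DEG in sham LV (log2 fold change -0.94, adjusted p = 0.0356), beside 2.35% of all genes that were lower DEGs. The 9 did not move one way, with 4 of them above 0, among them Tnni3 (cardiac troponin I) at 0.57 (adjusted p = 0.105), and a median of -0.09. Ryr2 lost the call without any 1 of the sham LV libraries, sham RV replicates 1 and 2 and VO LV replicate 2, with adjusted p up to 0.132. The summed FPKM of the 9 was 26236–28064 in sham LV and 22871–26731 in sham RV. Of the 2 fat markers that passed the filter, of 6 listed, Fabp4, a fatty acid carrier, was a higher DEG (log2 fold change 0.86, adjusted p = 0.0356), while Cidea, a lipid droplet protein, had a value of -0.19 (adjusted p = 0.710). Fabp4 lost the call without any 1 of sham LV replicates 1 and 2, the sham RV libraries and VO LV replicates 1 and 2, with adjusted p up to 0.134. The summed FPKM of the 6 fat markers was 909–1156 for sham LV and 571–614 for sham RV, of which Fabp4 alone made up 813–1100 and 451–533, and none was at 0 in every library. With this sum mostly Fabp4 and the other tested marker below 0, the list does not show whether fat cells differed. The part of any of these cell types in the clock gene values was not tested.

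**Figure D4:**
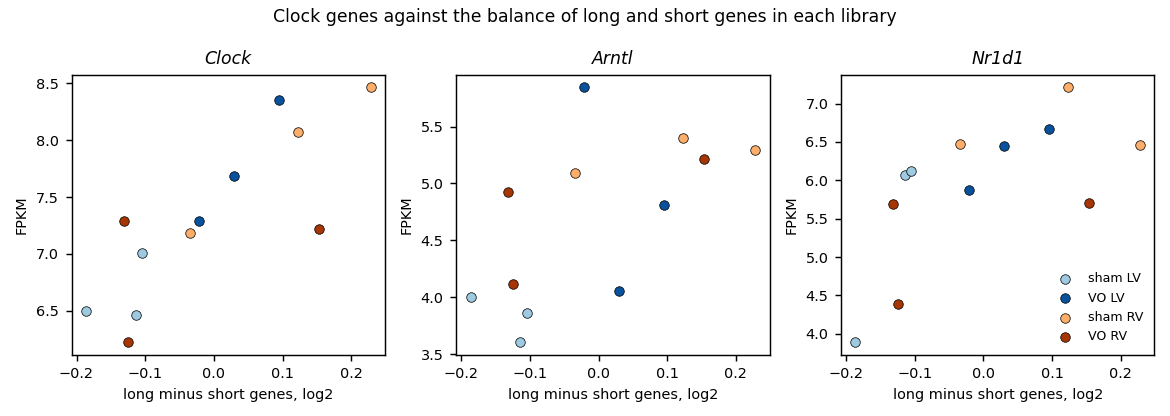
FPKM (y axis, not from 0) of Clock, Arntl and Nr1d1 in each library against the log2 balance of long over short genes in that library (x axis), coloured by group. Sham LV libraries sit at the left, between -0.19 and -0.10, where VO RV replicates 1 and 3 also lie (-0.13 and -0.12), and the highest Clock value, 8.47 FPKM, is in the library with the highest balance, 0.23.

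VO in the LV was not accompanied by a DEG among the clock genes either (0 of 10), beside 0.0935% of all tested genes (13 genes). Unadjusted p values were under 0.05 for 2 of the 10, beside 23.4% of all genes, and for 0 with voom. The FPKM of 3 of the 10 did not overlap between VO LV and sham LV, beside 32.4% of all genes. The median log2 fold change of the 10 was 0.06, beside -0.02 over all genes.

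Both activators were numerically higher in VO LV. Arntl had 5.85, 4.05 and 4.81 FPKM in VO LV, each above the 3 sham LV libraries given above, with VO LV replicate 2 only just so (log2 fold change 0.31, SE 0.13, adjusted p = 0.187). Without VO LV replicate 1 the log2 fold change of Arntl was 0.19 (adjusted p = 0.439). Clock had 7.29, 7.68 and 8.35 FPKM in VO LV, above all sham LV libraries (log2 fold change 0.21, SE 0.10, adjusted p = 0.230). The balance of long genes was also higher in VO LV, at -0.02, 0.03 and 0.10, and with the length trend removed the value of Clock was 0.11 (adjusted p = 0.467).

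Nr1d2, a repressor of Arntl, had 13.2, 14.9 and 14.2 FPKM in VO LV, all below the 16.1 to 17.9 FPKM of sham LV. Its log2 fold change was -0.25 (SE 0.09, adjusted p = 0.132), and with the length trend removed it was -0.31 (adjusted p = 0.0785). Its paralog Nr1d1 had 5.87, 6.45 and 6.67 FPKM in VO LV, which overlapped sham LV (log2 fold change 0.25, SE 0.16). Without sham LV replicate 2 the log2 fold change of Nr1d1 was 0.05. Per2 had 7.68, 9.71 and 9.10 FPKM in VO LV against 10.8, 13.2 and 9.21 FPKM in sham LV (log2 fold change -0.30, SE 0.16, adjusted p = 0.290), and its value was -0.17 without sham LV replicate 2. Per1 was at 18.4 ± 2.19 FPKM in VO LV, a log2 fold change of 0.21 (SE 0.14), or 0.12 without sham LV replicate 3. Per3, Cry1, Cry2 and Dbp stayed between 0.06 and 0.07 on the log2 scale, each with overlapping groups. Cell type markers also differed numerically in this comparison, with no DEG among them. Of 9 ventricular cardiomyocyte markers, 4 were higher and 2 lower in VO LV without overlap, with Ryr2 at 0.91 (adjusted p = 0.0534), Myh6 at 0.55 and Myh7 at 0.45 on the log2 scale. All 6 tested endothelial markers (median -0.24) and all 6 red blood cell markers (median -0.41) were below 0, and in VO LV these lists summed to 309–345 and 6469–9897 FPKM. Of 8 fibroblast markers 1 was above 0 (median -0.20), as was 1 of 8 macrophage markers (median -0.16) and 4 of 6 atrial markers (median 0.32). Their part in the clock gene values was not tested.

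In the RV, VO left all 10 clock genes short of the threshold, as it did every tested gene in this fit (0% DEGs). The study itself reported many DEGs for this comparison by DESeq2, so the 0% describes the limma fit of FPKM only. No clock gene had an unadjusted p under 0.05 by limma or voom, beside 8.4% of all genes by limma. Only the groups of Nr1d1 did not overlap (1 of 10), beside 12.5% of all genes. Nr1d1 had 5.69, 5.71 and 4.39 FPKM in VO RV against 6.46, 7.21 and 6.47 FPKM in sham RV. Its log2 fold change was -0.33 (SE 0.16, adjusted p = 0.606), and -0.21 without VO RV replicate 3. Arntl had 4.92, 5.21 and 4.11 FPKM in VO RV, 1 library within the sham RV range of 5.09 to 5.40 FPKM (log2 fold change -0.14, SE 0.13, and -0.05 without VO RV replicate 3). Clock had 7.29, 7.22 and 6.23 FPKM in VO RV (log2 fold change -0.18, SE 0.10), and its value was -0.11 without VO RV replicate 3 and -0.07 (adjusted p = 0.830) with the length trend removed. Per2 ran from 9.44 to 14.4 FPKM in VO RV, with VO RV replicate 3 the highest of all 12 libraries, and its log2 fold change was 0.14 (SE 0.16), or -0.01 without that library. The remaining 6 clock genes had log2 fold changes between -0.22 (Per1) and 0.11 (Dbp), and the median of the 10 was -0.05, beside 0.00 over all genes. Of 8 macrophage markers 7 were above 0 (median 0.37) and none was a DEG, with sums of 52.7–84.5 FPKM in VO RV and 44.5–54.5 in sham RV. All 6 atrial markers (median 0.69) and 7 of 8 fibroblast markers (median 0.16) were also above 0, with no DEG and with overlapping groups. The atrial markers summed to 266–4576 FPKM in VO RV and 225–1081 in sham RV. Of 9 ventricular cardiomyocyte markers 3 were lower without overlap, with Myh7 at -0.73 (adjusted p = 0.366) and Ryr2 at -0.70 (adjusted p = 0.536). The part of these cells in the clock gene values was not tested.

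Between the overloaded ventricles, VO LV against VO RV, none of the 10 was a DEG, beside 0.00719% of all genes (1 gene). Per2 alone had an unadjusted p under 0.05, beside 11.4% of all genes, at 8.83 ± 1.04 FPKM in VO LV and 11.7 ± 2.50 in VO RV (log2 fold change -0.37, SE 0.16, adjusted p = 0.423). Without VO RV replicate 3 the log2 fold change of Per2 was -0.22. The groups of 2 of the 10 did not overlap, beside 16.1% of all genes. They were Dbp, at 24.1 to 26.5 FPKM in VO LV and 21.9 to 23.6 in VO RV, and Nr1d1, at 5.87 to 6.67 FPKM and 4.39 to 5.71 FPKM. Dbp was thus numerically higher in the LV than in the RV under both sham and VO, with log2 fold changes of 0.19 and 0.14. The value of Arntl, -0.42 between the sham ventricles, was 0.03 (SE 0.13) between the overloaded ones. Of 8 fibroblast markers none was a DEG here, but 6 were lower in VO LV without overlap, beside 16.1% of all genes that did not overlap in either direction. The summed FPKM of the 8 was 2063–2543 for VO LV and 2533–4935 for VO RV, and none was at 0. All 9 ventricular cardiomyocyte markers were above 0 (median 0.27) and all 8 macrophage markers below 0 (median -0.41). Of 6 atrial markers 1 was above 0 (median -0.43), with no DEG among them. The part of these cells in the clock gene values was not tested.

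Whether VO acted differently on the clock genes of the LV and of the RV was tested directly as an interaction. None of the 10 clock genes was a DEG for it, beside 4.19% of all tested genes (583 genes). The unadjusted p was under 0.05 for Clock, Arntl and Nr1d1 (3 of 10), beside 25.5% of all genes, and voom left 2. The difference in log2 fold change was 0.39 (SE 0.14, adjusted p = 0.122) for Clock, 0.45 (SE 0.19, adjusted p = 0.162) for Arntl and 0.57 (SE 0.23, adjusted p = 0.148) for Nr1d1. These 3 genes were numerically higher with VO in the LV and lower with VO in the RV. Per1 followed at 0.43 (SE 0.20, adjusted p = 0.197), and Per2 pointed the other way at -0.44 (SE 0.23, adjusted p = 0.257), or -0.29 without VO RV replicate 3. Nr1d2 was at -0.20 and Per3, Cry1, Cry2 and Dbp lay between -0.05 and 0.09, and the median of the 10 was 0.07, beside -0.04 over all genes. With the length trend removed the difference for Clock was 0.18 (adjusted p = 0.370), that for Arntl 0.39 and that for Nr1d1 0.53. After this step the unadjusted p was under 0.05 for 3 of the 10, of which Nr1d1 was higher and Per2 (-0.58) and Nr1d2 (-0.30) were lower. Without sham LV replicate 2 the difference for Nr1d1 was 0.38.

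The value of Nr1d1 carries a further limit. Its last 1059 bases, at 86683875–86684933 of chromosome 10, overlap the end of Thra, a thyroid hormone receptor gene on the opposite strand, and whether the counting used strand is not given in the sources used here. It is therefore not known whether reads in this stretch were assigned to 1 gene only. In the LV, Thra had a mean of 38.0 FPKM after sham and 47.1 after VO, and in the RV it had 48.5 after sham and 41.7 after VO, several times the level of Nr1d1. Its log2 fold change was -0.35 between the sham ventricles (adjusted p = 0.0641), 0.31 for VO in the LV (adjusted p = 0.101) and -0.21 for VO in the RV (adjusted p = 0.588). The part of Thra reads in the values of Nr1d1 was not tested.

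Across the 12 libraries, the log2 values of the clock genes were also correlated with each other, as a description over libraries that share groups and processing. The highest Pearson r between any 2 clock genes was 0.75, between Clock and Nr1d1, and that between Clock and Arntl was 0.61. The lowest was -0.64, between Per2 and Nr1d1, and Arntl had an r of -0.48 with Nr1d2 and -0.17 with Dbp. Among the 12667 genes whose FPKM averaged at least 1, those most like Clock over the 12 libraries were Dip2c (r = 0.98), Usp15 (0.98) and Atad1 (0.97). Those most like Arntl were Fam60a (0.93), Stc2 (0.92) and Pura (0.89). Those most like Dbp were Aif1l (0.87), Ccdc136 (0.85) and Apeh (0.84), and those most like Per1 were Adra1b (0.93), LOC100359600 (0.90) and LOC100360940 (0.89). No clock gene was among the 3 most like any of these 4.

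Beyond the 10, 13 other core clock factors were listed, and 10 of them passed the filter. In the 4 comparisons between groups none was a DEG. For the difference between the responses to VO, 1 of 10 was a DEG, beside 3.46% of all genes that were DEGs in the same direction. This was Cipc, whose product binds CLOCK and restrains the dimer. Cipc had 13.7, 13.0 and 15.7 FPKM in sham LV and 20.4, 20.8 and 22.2 FPKM in VO LV, and 20.8, 19.4 and 19.5 FPKM in sham RV and 21.2, 16.7 and 14.1 FPKM in VO RV. Sham LV stood below the other groups except VO RV replicate 3, and the difference was 0.78 (SE 0.18, adjusted p = 0.0422 by limma). Bhlhe41 (DEC2), a repressor that competes for E-boxes, had 0.973 ± 0.311 FPKM in sham LV and 2.50 ± 0.438 in VO LV, against 2.27 ± 0.842 in sham RV and 1.78 ± 0.761 in VO RV. Its difference was 1.33 (SE 0.40, adjusted p = 0.0775). Bhlhe40 (DEC1) had 16.0 ± 2.47 FPKM in sham LV and 20.9 ± 2.12 in VO LV (log2 fold change 0.39, adjusted p = 0.123). Tef, a relative of Dbp, had a difference of 0.40 (SE 0.16, adjusted p = 0.146).

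The enzymes that modify clock proteins held 3 more DEGs for this difference among 25 tested, all higher, again beside 3.46% of all genes. Csnk2a1, the catalytic subunit of casein kinase 2, which phosphorylates BMAL1 and PER2, had 22.1, 19.5 and 27.2 FPKM in sham LV and 36.1, 43.2 and 53.2 FPKM in VO LV. In the RV it had 51.6, 40.2 and 36.3 FPKM after sham and 32.4, 37.4 and 22.5 FPKM after VO. The groups did not overlap in the LV but did so in the RV, and the difference was 1.41 (SE 0.30, adjusted p = 0.0329). Csnk2a1 was also a DEG between the sham ventricles, with a log2 fold change of -0.88 (SE 0.21, adjusted p = 0.0451), 1 of 25 beside the 2.35% of all genes that were lower DEGs. Usp2, a deubiquitinase of clock proteins, had 8.18 ± 1.80 FPKM in sham LV and 16.4 ± 2.55 in VO LV, and 14.8 ± 2.59 in sham RV and 11.6 ± 2.93 in VO RV. Its difference was 1.32 (SE 0.30, adjusted p = 0.0409). Csnk1a1 (casein kinase 1 alpha) had 98.7 ± 7.38 FPKM in sham LV and 130 ± 11.8 in VO LV, against 129 ± 8.71 and 111 ± 13.2 in the RV, a difference of 0.63 (SE 0.15, adjusted p = 0.0478). Nampt, the enzyme of NAD salvage, had 18.4 ± 0.644 FPKM in VO LV and 12.9 ± 2.83 in VO RV (log2 fold change 0.52, adjusted p = 0.269). The median difference of the 25 was 0.34, and that of the 10 other core factors was 0.31, beside -0.04 over all genes.

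**Figure D5:**
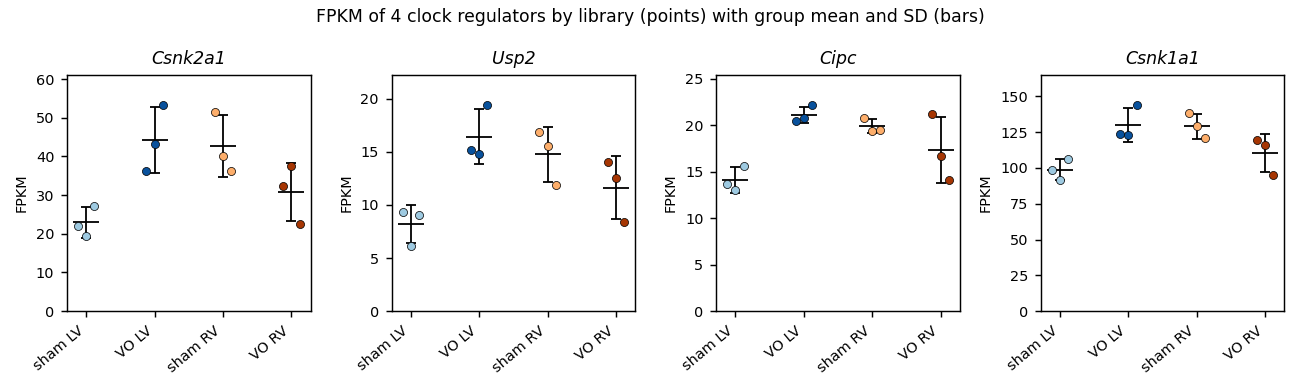
FPKM (y axis, from 0) of Csnk2a1, Usp2, Cipc and Csnk1a1 in each library (points) by group, with the mean (wide line) and SD (error bars, n = 3). Sham LV is the lowest group for each gene, for example 19.5 to 27.2 FPKM for Csnk2a1, and all VO LV libraries lie above it.

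These calls were not steady. All 4, for Cipc, Csnk2a1, Usp2 and Csnk1a1, lost significance when any 1 of 7 libraries was left out (sham LV replicate 1 or 2, sham RV replicate 1 or 2, VO LV replicate 2 or 3, or VO RV replicate 3), with adjusted p then between 0.0617 and 0.127. Some were lost without further libraries, and over all 12 the difference kept its direction at 0.52 to 1.56. The loss was not particular to these genes when sham LV replicate 1 was left out, since 0 tested genes were then DEGs for the difference. The call of Csnk2a1 between the sham ventricles was lost without any 1 of 8 libraries (all but sham LV replicate 3, VO LV replicate 3, VO RV replicate 2 and VO RV replicate 3), with adjusted p up to 0.166. With the length trend removed, the differences for Cipc (0.69, adjusted p = 0.0584) and Csnk1a1 (0.59, adjusted p = 0.0532) were close in size to those above but no longer passed the threshold.

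Among 24 tested clock-controlled output genes, Rgs16, Klf9, Pdk4 and Usp2 were DEGs in a comparison. Rgs16, a regulator of G protein signaling, had 8.35 ± 1.14 FPKM in sham LV and 5.34 ± 0.373 in sham RV, with a log2 fold change of 0.59 (SE 0.13, adjusted p = 0.0387), 1 of 24 beside the 1.51% of all genes that were higher DEGs. It lost the call without any 1 of the sham RV libraries, sham LV replicate 1 or 2 or VO LV replicate 1 or 2, with adjusted p up to 0.150. For the difference between the responses to VO, 3 of 24 were DEGs, all higher, beside the same 3.46% of all genes, and Usp2, described above, was among them. Pdk4, the kinase that shuts off glucose oxidation, had 10.3, 3.96 and 9.50 FPKM in sham LV and 30.9, 31.7 and 41.1 FPKM in VO LV, against 24.2, 20.6 and 12.6 FPKM in sham RV and 25.7, 19.9 and 8.86 FPKM in VO RV. The LV groups stood far apart and the RV groups overlapped, with a difference of 2.30 (SE 0.58, adjusted p = 0.0491). Klf9, a Krüppel-like factor, had 9.57 ± 2.46 FPKM in sham LV and 15.2 ± 2.31 in VO LV, against 15.3 ± 1.60 in sham RV and 10.4 ± 2.73 in VO RV, a difference of 1.22 (SE 0.29, adjusted p = 0.0422). Tfrc, the transferrin receptor, had 33.0 ± 1.13 FPKM in VO LV and 24.3 ± 4.94 in VO RV (adjusted p = 0.257).

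Per1 is also induced by glucocorticoids and by cyclic AMP, so lists of genes that respond to these signals were read beside them. Of 15 glucocorticoid-responsive genes, Klf9, Pdk4 and Zbtb16 (3 of 15) were higher DEGs for the difference, beside 3.46% of all genes. Sgk1, a kinase of ion transport, was a higher DEG between the sham ventricles (1 of 15, beside 1.51%), at 9.73 ± 0.152 FPKM in sham LV and 6.99 ± 0.940 in sham RV, with a log2 fold change of 0.46 (SE 0.11, adjusted p = 0.0493). Zbtb16, a zinc finger repressor, had 0.558 ± 0.0785 FPKM in sham LV and 1.59 ± 1.13 in VO LV, against 2.01 ± 0.664 in sham RV and 0.693 ± 0.112 in VO RV, a difference of 1.88 (SE 0.47, adjusted p = 0.0491). The median difference of this list was 0.04. Klf9, Pdk4 and Zbtb16 lost their calls without any of the same 7 libraries as Cipc, with adjusted p between 0.0675 and 0.128, and Sgk1 lost its call without any 1 of 10 libraries (all but VO RV replicate 2 and VO RV replicate 3), with adjusted p up to 0.176. With the length trend removed, the differences for Pdk4 (2.35, adjusted p = 0.0554) and Zbtb16 (1.84, adjusted p = 0.0565) also kept their size without passing the threshold.

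Of 13 tested genes induced by cyclic AMP, calcium or serum, 2 were DEGs with VO in the LV, beside 0.0719% of all genes that were higher DEGs. They were Sik1, a kinase that feeds back on cyclic AMP signaling and on Per1 induction, and Nr4a1, an orphan nuclear receptor. Sik1 had 5.05, 4.84 and 4.68 FPKM in sham LV and 13.0, 15.2 and 15.6 FPKM in VO LV (log2 fold change 1.49, SE 0.18, adjusted p = 0.0333). In the RV it had 7.81, 6.90 and 5.33 FPKM after sham and 13.1, 14.4 and 8.83 FPKM after VO, which did not overlap either (log2 fold change 0.80, SE 0.18, adjusted p = 0.482). Nr4a1 had 6.86 ± 0.571 FPKM in sham LV and 15.6 ± 2.51 in VO LV (log2 fold change 1.12, SE 0.14, adjusted p = 0.0333), and 8.69 ± 1.10 FPKM in sham RV and 16.7 ± 2.36 in VO RV (log2 fold change 0.91, SE 0.14, adjusted p = 0.313). Both calls were lost without any 1 of sham LV replicates 1 and 2 and the 3 VO LV libraries, and that of Nr4a1 also without sham RV replicate 3, with adjusted p up to 0.226. The 13 had a median log2 fold change of 0.39 with VO in the LV and of 0.36 with VO in the RV, beside -0.02 and 0.00 over all genes. Per1 had 0.21 and -0.22 (SE 0.14 each), with overlapping groups in both ventricles. The part of the cell types whose markers are given above for VO in the LV was not tested.

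Of 9 tested temperature-responsive genes, which body temperature can bring into step with the clock, none was a DEG in any comparison. By unadjusted p under 0.05 and a fold change over 1.3, 1 of 9 passed between the sham ventricles, beside 17.8% of all genes, and 3 of 9 for the difference, beside 23.1%. Without regard to size, 4 were higher and 3 lower in sham LV with no overlap with sham RV, beside 32.2% of all genes that did not overlap, and 1 was higher and 4 lower in VO LV with no overlap with sham LV, beside 32.4%. Rbm3, a cold-induced RNA-binding protein, was at 149 ± 17.2 FPKM in sham LV and 113 ± 13.0 in sham RV, with a log2 fold change of 0.39 (SE 0.11, adjusted p = 0.0719). For the difference in the responses to VO its value was -0.52 (SE 0.16, adjusted p = 0.0817). Cell type markers also moved for this difference, with 3 of 9 ventricular cardiomyocyte markers (Myh6, Myh7 and Ryr2) higher DEGs and 3 of 9 below 0, beside 3.46% of all genes that were higher DEGs, and 1 of 8 macrophage markers (C1qb) a lower DEG, beside 0.733%. All 4 lost these calls without any 1 of sham LV replicates 1 and 2, sham RV replicates 1 and 2 and VO LV replicates 2 and 3. Myh6 and C1qb also lost theirs without VO LV replicate 1 or VO RV replicate 3, and C1qb without VO RV replicate 2, with adjusted p up to 0.116. All 6 endothelial markers (median -0.29), all 6 red blood cell markers (median -0.58) and all 8 macrophage markers (median -0.48) were below 0 for the difference. So were all 6 atrial markers (median -0.33), and of 8 fibroblast markers 1 was above 0 (median -0.36). The cardiomyocyte markers summed to 26236–28064 FPKM in sham LV, 27105–29878 in VO LV, 22871–26731 in sham RV and 18742–27168 in VO RV, and none of the 9 was at 0. Their part in the clock regulator values was not tested.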

How the data were processed

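Free-wall RNA of both ventricles was sequenced in 12 libraries, 3 in each of 4 groups taken from the titles in the labels. The authors cleaned the reads, aligned them with Hisat2 (2.0.5), counted reads per gene with featureCounts (1.5.0-p3) and deposited the values as FPKM, for 32545 genes. The genome build is not given in the sources used here. Multiplied by gene length, 100% of the values under 200 reads were whole multiples of 1 step per library within 0.02, which gave back the reads. No column of values was left out (0).

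The values tested were log2 of (FPKM over a median-ratio size factor, plus 0.5), so fold changes of low genes are understated. Genes whose FPKM averaged at least 0.5 (13910) went into 1 limma model (3.58.1, R 4.3.3, eBayes with an intensity trend) over the 12 libraries, with 5 comparisons and Benjamini–Hochberg adjustment over all tested genes. Single clock genes were also compared by exact two-sided permutation tests (scipy 1.17.1). The procedure was tested on simulated data. Alternatives were no rescaling, quantile normalization, pseudocounts of 1 and 0.1, other filters, replicate blocks, array weights, a separate fit, voom on the recovered reads, and fits without 1 library. A further alternative, chosen after seeing the data, took out a lowess trend (span 0.3) of each library on gene length.

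The 10 clock genes and the gene lists were chosen with earlier results of these data known. Besides the 10, the genes named are the DEGs of each list, some of the up to 3 genes per list and comparison with the smallest p (an unadjusted p under 0.05, a fold change over 1.3 and no overlap between groups), and the 3 genes most like Dbp, Arntl, Per1 and Clock. Thra was added because it overlaps Nr1d1, and Cidea, Tnni3 and Cldn5 were named after their values were seen. Mt1, Nr3c1 and Tsc22d3 stand on 2 rows each, and the row with the higher mean was used. Promoters are RefSeq's, on GRCr8.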

Additional observations from a re-analysis of the deposited data

Results flagged for a closer look

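For 7 genes of the lists read beside the clock genes, the LV and RV responses to VO differed by the interaction test of limma, and these are given as values only. The response in the LV minus that in the RV, on the log2 scale, was 0.78 for Cipc, 0.63 for Csnk1a1, 1.41 for Csnk2a1, 1.32 for Usp2, 1.22 for Klf9, 2.30 for Pdk4 and 1.88 for Zbtb16, with adjusted p between 0.0329 and 0.0491. None of the 10 clock genes met this test. All 7 lost significance without any 1 of sham LV replicates 1 and 2, sham RV replicates 1 and 2, VO LV replicates 2 and 3 and VO RV replicate 3, with adjusted p then up to 0.128. When sham LV replicate 1 was left out, 0 of all tested genes were DEGs for this difference.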

How the results depend on the processing

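The count of clock genes called as DEGs was 0 in all 5 comparisons and stayed 0 under each other setting in every comparison it was run for. There were 24 other settings, 12 of which left out 1 library. The block within treatment could not be fitted for VO against sham in either ventricle, and the separate fit of the groups compared was not run for the difference, which uses all 4 groups. Of 1170 log2 fold changes of clock genes recomputed, 0 were called and 45 had the opposite sign to the value given above, none of them where the unadjusted p had been under 0.05. Counts over all genes depended far more on the setting. DEGs between the sham ventricles numbered 537, between 0 (without sham RV replicate 1) and 872 (without VO RV replicate 3) with 1 library left out, and between 0 and 1321 (array weights) otherwise. DEGs for VO in the LV numbered 13, between 0 and 555 with 1 library left out and between 3 and 704 otherwise, and those for the difference numbered 583, between 0 and 1004 and between 0 and 1047. VO in the RV gave 0 to 1 DEGs, and VO LV against VO RV gave 1 to 48 (without VO RV replicate 1). The cause of these ranges was not tested.

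Samples with the same replicate number did not deviate together. The correlation of their deviations from the group means was between -0.22 and 0.12 for LV and RV of a treatment and between -0.13 and 0.12 for sham and VO of a ventricle, above 0.1 in 1 of 6 pairs each. With the replicate number as a block the count of clock genes called was 0 in every comparison, and the 7 regulators and outputs named for the difference (Cipc, Csnk2a1, Usp2, Csnk1a1, Pdk4, Klf9 and Zbtb16) lost their calls. These 7 also lost them when all genes above 0 were tested, with adjusted p between 0.0682 and 0.0956. Csnk1a1 further lost its call with quantile normalization (0.0572) and voom (0.0737), Pdk4 with a pseudocount of 0.1 (0.0505), and Zbtb16 with a pseudocount of 1 (0.0518), array weights (0.0799) and voom (0.0542). Between the sham ventricles Rgs16, Sgk1 and Csnk2a1 lost their calls with the block and with all genes above 0, and Rgs16 and Sgk1 also with voom and with a fit of those groups alone. The cell type markers called between the sham ventricles (Emcn, Kdr, Tie1, Ryr2 and Fabp4) and for the difference (Myh6, Myh7, Ryr2 and C1qb) likewise lost their calls with the block and with all genes above 0. Under the block within treatment, 0 of all tested genes were DEGs in either of these comparisons. C1qb also lost its call with voom (0.0569) and with the length trend removed (0.0627), Kdr with voom (0.0684), the separate fit (0.0759) and array weights, where its fold change was under 1.3, and Tie1 with the separate fit (0.0538). Counting error limits Arntl and Nr1d1 most, at 159 to 290 reads per library, followed by Cry1 at 228 to 385 reads.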
